A study of Mus musculus with 4 samples.

Results

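Myoepithelial cells form the contractile outer layer of mammary ducts and alveoli and squeeze milk towards the nipple when oxytocin reaches its receptor. Their contractile proteins are those of smooth muscle: actin and myosin filaments that slide when myosin light chain kinase, activated by calcium and calmodulin, phosphorylates the regulatory light chain. The same proteins are made by the smooth muscle of vessel walls and by myofibroblasts, while p63, a transcription factor of basal epithelial cells, marks the myoepithelial layer and is not a contractile protein. The genes described here were chosen by name: Acta2, Actg2, Myh11, Cnn1, Tagln, Mylk, Oxtr and Trp63. They are 8 of the 12393 genes that had a probe set with a single gene symbol, and every one of their 14 such probe sets was read.

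The arrays measured RNA of mammary tumours from female nulliparous FVB mice, either wild type (WT) or carrying MMTV-PAX8PPARg, a fusion of PAX8 and PPARg under the MMTV viral promoter, which drives expression in epithelial cells of the gland. All groups, the controls included, had received the progestin MP (15 mg) and then 4 weekly oral doses of the carcinogen DMBA (1 mg each), and pellets with a 60-day release held either placebo or 2.5 mg of RU486 (mifepristone), which blocks the progesterone receptor and the glucocorticoid receptor. The mice are labelled as age-matched, with no age stated in the sources used here. Each of the 4 groups (WT or PAX8PPARg mice, with placebo or RU486) was 1 array hybridised with RNA pooled from 5 mice. The spread between mice is therefore unknown, no difference has a replicate check or a test, and precision is limited by having so few arrays. Signals of a gene are listed with placebo before RU486 and WT before PAX8PPARg. Signals are on the deposited linear scale, and differences are between values of log2(signal + 16) that were centred array by array on the median, a scale that understates differences of low signals.

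The arrays had been scaled to a common trimmed mean, but the spike-in controls were not equally bright. Relative to WT placebo they read 1.58 times with RU486 in WT, 1.01 times with placebo in PAX8PPARg and 2.44 times with RU486 in PAX8PPARg. Scaling to these controls in place of the medians moved the median of all genes by -0.54 log2 for RU486 against placebo in WT and by -1.25 log2 in PAX8PPARg, so the differences below are relative to the other genes of the array. The bacterial controls of the array design reached between 8.3 and 35.3 on the arrays, and a signal no higher than the ceiling of its array counts as within the background range. The tissue label was checked against 13 luminal epithelial markers, whose summed signal was 44110 with placebo and 6485 with RU486 in WT, and 37811 and 41194 in PAX8PPARg. All 13 had their lowest signal on the WT RU486 array, against 32.6% of all genes, and 2 were within the background range there. These markers thus bore out the label less well on that array, which enters the RU486 comparison in WT and the genotype comparison under RU486.

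Promoter sequences from RefSeq (GRCm38.p6) were matched for 4 of the 8 genes, Acta2, Cnn1, Mylk and Oxtr, and the 250 bases before the start were searched on both strands. The motifs were the CArG box (CC, then 6 bases that are A or T, then GG), which serum response factor binds in smooth muscle genes, the hexamer CATTCC bound by TEAD factors, and TGTTCT, the half-site of the glucocorticoid and progesterone receptors. A pair of promoters is shown because they held the matches, for actin and for the kinase that switches myosin on. Capitals mark all matches. The stretch of Acta2 is chr19:34255374-34255623 on the minus strand, and that of Mylk is chr16:34784700-34784949 on the plus strand.
Acta2: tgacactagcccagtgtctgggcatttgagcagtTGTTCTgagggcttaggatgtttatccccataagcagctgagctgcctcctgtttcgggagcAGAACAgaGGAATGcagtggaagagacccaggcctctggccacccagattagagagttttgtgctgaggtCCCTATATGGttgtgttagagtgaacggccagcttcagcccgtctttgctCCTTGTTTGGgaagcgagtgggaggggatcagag
Mylk: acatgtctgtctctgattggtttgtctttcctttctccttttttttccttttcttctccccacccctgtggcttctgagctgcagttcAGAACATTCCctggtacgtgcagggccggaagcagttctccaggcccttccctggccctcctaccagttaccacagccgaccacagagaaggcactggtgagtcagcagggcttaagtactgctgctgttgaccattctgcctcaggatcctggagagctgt

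The Acta2 promoter held a pair of CArG-like matches, each with 1 base off among the middle 6, CCCTATATGG at -84 to -75 and CCTTGTTTGG at -34 to -25 from the start. Of 32851 promoter windows of this length, 8.59% held such a match or a full CArG box, and 1.47% held the full box. Acta2 also had 1 match to CATTCC, found in 12.6% of all windows, and a pair of matches to TGTTCT, found in 16.1%. In Mylk 1 match to CATTCC and 1 to TGTTCT overlapped each other, and the windows of Cnn1 and Oxtr held none of these motifs. A match is a description of the letters only.

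Over the 4 arrays, the levels of the 8 genes had common ends. The PAX8PPARg placebo array had the highest signal for 8 of 8 genes, against 26.1% of all genes, and the WT RU486 array had the lowest for 7 of 8, against 32.6%. Cnn1 was the exception, with its lowest signal on the PAX8PPARg RU486 array. For 7 of the 8 genes both placebo arrays lay above both RU486 arrays, and for Trp63 the PAX8PPARg RU486 array ranked above the WT placebo array. These ranks and shares are of the deposited signals, of which the PAX8PPARg placebo array had the highest median (188.35). The share of all genes with both placebo arrays above both RU486 arrays was not counted, nor were shares after centring. After centring, the first count was 5 of 8, since Acta2 and Actg2 were then highest with placebo in WT and Trp63 with RU486 in PAX8PPARg, and the second was again 7 of 8. All 8 adipocyte and all 10 endothelial markers measured were also highest on the PAX8PPARg placebo array. The ratio of 3' to 5' Gapdh signal, a sign of RNA quality, was highest on the WT RU486 array, at 3.33 against 2.51 with placebo in WT and 2.89 and 3.01 in PAX8PPARg. Its part in the low values there was not tested. Since no spread between mice is known, neighbours in these orders cannot be said to differ.

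**Figure D1:**
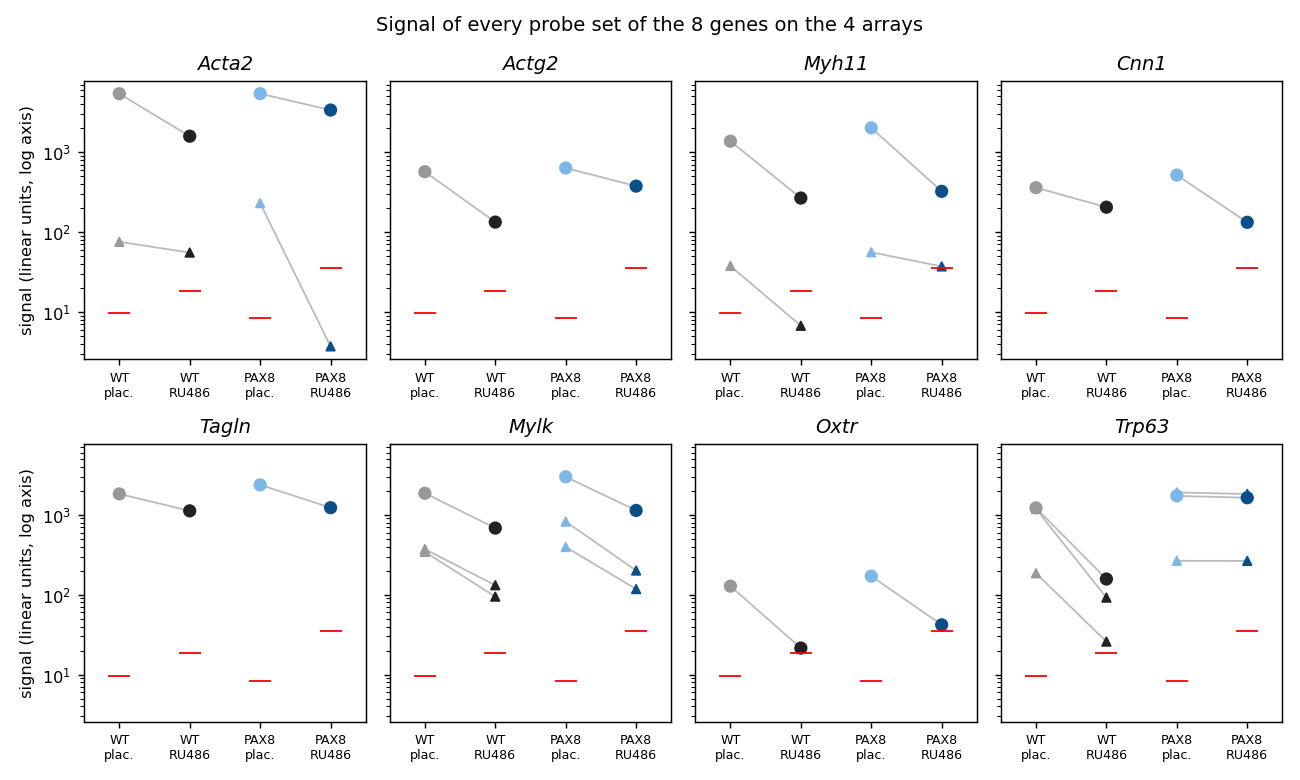
Signal of every probe set of the 8 genes on the 4 arrays (linear units on a log axis), with circles for the probe set that represents the gene, triangles for its others, and red dashes at the highest bacterial control of the array. Trp63 was high on both PAX8PPARg arrays (1726 and 1637) and low on the WT RU486 array (157), while Myh11 was low on both RU486 arrays (266 and 323).

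In WT tumours 4 of the 6 contractile genes (Acta2, Actg2, Myh11 and Mylk), Oxtr and Trp63 were lower by 2-fold or more in the RU486 pool than in the placebo pool, while Cnn1 (-0.77) and Tagln (-0.70) lay below 0 but within 2-fold. Of the 8 genes, 6 were lower by 2-fold or more and 0 higher, where 8.85% of all genes were lower by that much and 7.45% higher. The median difference of the 8 was -1.85 log2, against 0.01 for all genes, and all 14 probe sets lay below 0. The differences ranged from -2.84 for Trp63 to -0.70 for Tagln.

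In PAX8PPARg tumours 3 of the 6 contractile genes (Myh11, Cnn1 and Mylk) and Oxtr were lower under RU486 by 2-fold or more. Acta2 (-0.54), Actg2 (-0.60) and Tagln (-0.81) lay below 0 but within 2-fold, and Trp63 lay at 0.06. Here 4 of the 8 genes were lower by 2-fold or more and 0 higher, against 7.02% and 10.6% of all genes. The median was -1.03 log2 beside 0.13 for all genes. The genes at least 2-fold lower in both genotypes were Myh11, Mylk and Oxtr, that is 3 of 8 against 1.48% of all genes. The RU486 comparisons of the genotypes share no array, whereas each genotype comparison below shares its arrays with them.

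**Figure D2:**
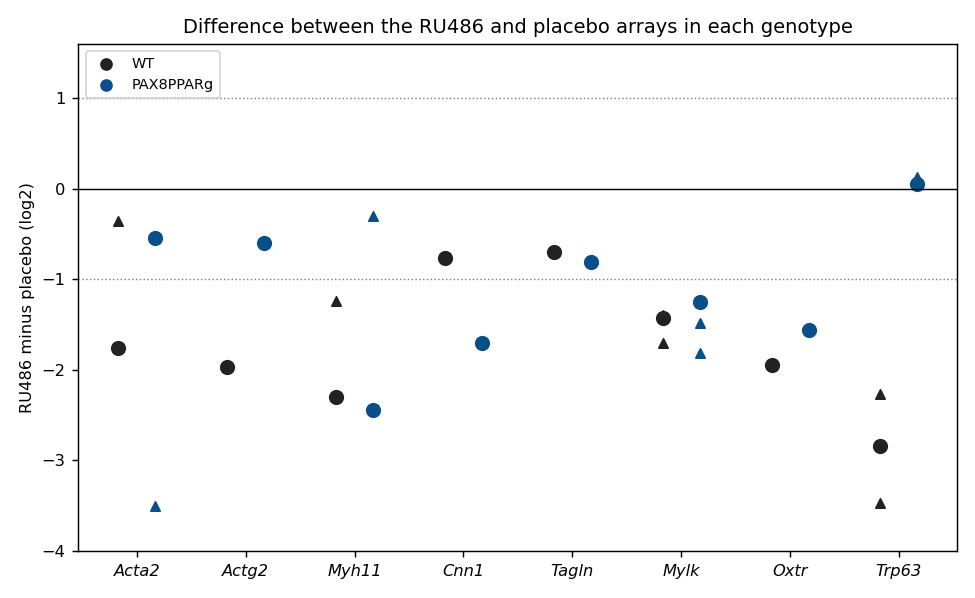
Difference between the RU486 and placebo arrays in log2 for every probe set of the 8 genes, with WT in black and PAX8PPARg in blue, circles for the representative probe set, triangles for the others, and dotted lines at 2-fold. The 3 probe sets of Trp63 lay at -2.84, -3.48 and -2.27 in WT and near 0 in PAX8PPARg (0.06, 0.07 and 0.13), and Cnn1 was lower in PAX8PPARg (-1.71) than in WT (-0.77).

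Of the filament proteins, smooth muscle myosin heavy chain had the largest difference. Myh11, whose product is the motor of smooth muscle, read 1369.8 with placebo and 266 with RU486 in WT, and 2015 and 323 in PAX8PPARg. Both RU486 arrays were low and both placebo arrays high, with differences of -2.30 log2 (4.91-fold lower) in WT and -2.45 log2 (5.46-fold lower) in PAX8PPARg. Its second probe set read 37.6, 6.7, 55.8 and 37.1 in the same order, the value of 6.7 within the background range, and differed by -1.24 in WT and by -0.30 in PAX8PPARg. The size in PAX8PPARg thus depended on the probe set, the dimmer of which lay near the background range.

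By the probe sets that represent them, the smooth muscle actins differed more in WT than in PAX8PPARg. Acta2, the gene of alpha smooth muscle actin and the usual marker of myoepithelium and myofibroblasts, read 5392 with placebo and 1584 with RU486 in WT, and 5395 and 3366 in PAX8PPARg. The WT RU486 array was the low one, and the difference was -1.76 log2 (3.38-fold lower) in WT and -0.54 log2 (1.46-fold lower) in PAX8PPARg. This probe set carries the suffix that Affymetrix gives to sets that may match several transcripts, so related actins cannot be told apart from Acta2 in it. A second Acta2 probe set read 75.4, 55.3, 229.8 and 3.7 in the same order, the last within the background range, and gave the opposite ranking of the genotypes, with -0.36 in WT and -3.51 in PAX8PPARg. Actg2, the gene of gamma smooth muscle actin, has 1 probe set, which read 569, 133, 634 and 376. Its differences of -1.97 log2 (3.92-fold lower) in WT and -0.60 log2 (1.51-fold lower) in PAX8PPARg followed the brighter probe set of Acta2.

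The genes of the actin-binding proteins had the smallest differences of the 8 in WT, though not in PAX8PPARg. Cnn1, the gene of calponin, which binds actin and restrains the myosin motor, read 359 with placebo and 205 with RU486 in WT, and 516 and 132 in PAX8PPARg. Its difference was -0.77 log2 in WT and -1.71 log2 (3.27-fold lower) in PAX8PPARg, and it was the 1 gene with the lowest signal on the latter's RU486 array. Tagln, the gene of transgelin (SM22), an actin-bundling protein, read 1828, 1122, 2372 and 1229 in that order. It stayed within 2-fold in both genotypes, at -0.70 log2 (1.62-fold lower) in WT and -0.81 log2 (1.75-fold lower) in PAX8PPARg.

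The kinase gene was lower in both genotypes by similar amounts. Mylk, the gene of myosin light chain kinase, read 1862 with placebo and 683 with RU486 in WT, and 2998 and 1136 in PAX8PPARg. The differences were -1.42 log2 (2.68-fold lower) in WT and -1.25 log2 (2.39-fold lower) in PAX8PPARg. All 3 probe sets of Mylk were at least 2-fold lower in both genotypes, with -1.42, -1.40 and -1.70 in WT and -1.25, -1.82 and -1.49 in PAX8PPARg. Of the other genes with a difference of 2-fold or more in both genotypes, Oxtr has only 1 probe set. The second probe set of Myh11 lay within 2-fold in PAX8PPARg.

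The receptor gene followed the motor and the kinase. Oxtr, the gene of the oxytocin receptor, through which oxytocin triggers contraction, read 128 with placebo and 21.5 with RU486 in WT, and 171 and 42 in PAX8PPARg. Its RU486 differences were -1.94 log2 (3.84-fold lower) in WT and -1.55 log2 (2.94-fold lower) in PAX8PPARg. The signals under RU486 lay just above the background range, whose ceilings were 18.5 and 35.3 on those arrays, so the size of the differences is not exact. Oxtr was also the 1 gene of the 8 whose mean fell below that of the median gene.

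Trp63, the gene of p63, was the member whose values separated from the contractile genes. It read 1222 with placebo and 157 with RU486 in WT, and 1726 and 1637 in PAX8PPARg, so that 1 array was low and the others high. The RU486 difference was -2.84 log2 (7.14-fold lower) in WT. In PAX8PPARg it was 0.06, and it changed sign to -0.08 without centring, -0.04 with quantile normalization and -1.34 with spike-in scaling, where the median of all genes itself lay at -1.12. The other probe sets of Trp63 differed by -3.48 and -2.27 in WT and by 0.07 and 0.13 in PAX8PPARg.

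Relative to Trp63 on the same array, the contractile genes therefore lay on opposite sides in the genotypes. The mean log2 value of Acta2, Actg2, Myh11, Cnn1, Tagln and Mylk differed by -1.48 under RU486 in WT, and by -1.23 in PAX8PPARg. Set against Trp63, that mean was 1.35 log2 higher under RU486 in WT and differed by -1.28 log2 in PAX8PPARg. Each of the 6 genes, and Oxtr, had the same signs of this ratio, from 0.54 for Myh11 to 2.14 for Tagln in WT and from -2.51 for Myh11 to -0.60 for Acta2 in PAX8PPARg. These shared signs follow from Trp63 alone, whose difference was the lowest of the 8 genes in WT and the highest in PAX8PPARg. In bulk tumour RNA, fewer cells of a type and less RNA per cell cannot be told apart.

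Basal epithelial genes other than Trp63 did not follow the contractile genes in PAX8PPARg. Of 17 measured genes of basal and myoepithelial identity, 13 were lower by 2-fold or more in the WT RU486 pool (median -1.38 log2). There 1, Dst, was higher (1.83), where 8.85% of all genes were lower and 7.45% higher. In PAX8PPARg 9 were higher by 2-fold or more and 0 lower, against 10.6% and 7.02% of all genes. The median there of 1.14 became -0.17 with spike-in scaling, which put the median of all genes at -1.12. The basal keratin gene Krt5 read 2082 and 222 on the WT placebo and RU486 arrays and 1278 and 5637 on the PAX8PPARg arrays. Krt14, its partner keratin, read 5817, 199, 1475 and 8034, and Krt17 read 509, 68.9, 267 and 1725. Snai2, a transcription factor of basal cells, read 184, 60.8, 339 and 299.5, the pattern of Trp63 rather than of the keratins.

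Genes of stratified epithelium that include targets of p63 were apart from Trp63 itself in PAX8PPARg. All 9 measured genes lay below 0 in WT, 5 of them by 2-fold or more (median -1.39), against 8.85% of all genes. In PAX8PPARg 8 of 9 were higher under RU486 by 2-fold or more, against 10.6% of all genes. The median there of 1.97 became 0.57 with spike-in scaling, which put the median of all genes at -1.12. Under placebo 6 of the 9 were at least 2-fold lower in PAX8PPARg than in WT (median -1.54), against 5.5% of all genes. Perp, a p63 target of desmosomes, read 3974, 1505, 3096 and 8673. Dsc3, the desmosomal cadherin desmocollin 3, read 58.4, 0.6, 41.7 and 247, its value of 0.6 on the WT RU486 array within the background range.

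Further smooth muscle genes did not form a block, with 15 of 20 within 2-fold in each genotype. Of the 20 measured genes of smooth muscle contraction and cytoskeleton, 4 were lower and 1 higher by 2-fold or more in WT (median -0.02). In PAX8PPARg 5 were lower and 0 higher (median -0.04). Of all genes, 8.85% were lower and 7.45% higher by that much in WT, and 7.02% and 10.6% in PAX8PPARg. The genes lower in WT were Myl9, Lmod1, Ppp1r14a and Itga8, those lower in PAX8PPARg were Myl9, Lmod1, Kcnmb1, Itga8 and Pdlim3, and Mrvi1 (1.40) was the higher one in WT. Ppp1r14a (-1.41 in WT), Pdlim3 (-1.41 in PAX8PPARg) and Mrvi1 are named after their values were seen, as are Dst, Plcb1, Gata6, Thy1, Lum and Angpt1. Myl9, the gene of the regulatory myosin light chain that the kinase phosphorylates, read 2152 with placebo and 826 with RU486 in WT, and 2641 and 1128 in PAX8PPARg. Lmod1, the gene of leiomodin, which nucleates actin filaments in smooth muscle, read 142, 38.4, 232 and 59.0, and the integrin gene Itga8 read 646, 274, 1413 and 339. These 3 of the 20 genes were at least 2-fold lower under RU486 in both genotypes, against 1.48% of all genes. The same held for Myh11, Mylk and Oxtr.

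Other genes of that list named here lay within 2-fold in both genotypes, apart from Kcnmb1. The tropomyosin genes Tpm1 and Tpm2 differed by 0.19 and 0.09 log2 in WT and by 0.90 and -0.15 in PAX8PPARg, and the caldesmon gene Cald1 by 0.51 and 0.82. Smtn, the gene of smoothelin, differed by -0.37 and -0.49, and Des, the gene of desmin, by -0.52 and 0.50. Synpo2 differed by -0.06 and 0.10. Kcnmb1, a subunit of the calcium-activated potassium channel of smooth muscle, differed by 0.03 in WT and by -1.04 in PAX8PPARg, where its RU486 value of 22.7 lay within the background range.

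The non-muscle counterparts of the contractile genes mostly lay on the other side of 0, all but Actb in PAX8PPARg within 2-fold. Leaving out Trp73, the p63 relative of that list, 10 of 11 were above 0 in WT and 11 of 11 in PAX8PPARg, against 50.8% and 59.5% of all genes. Their medians of 0.35 and 0.43 became -0.31 and -0.98 with spike-in scaling, beside -0.53 and -1.12 for all genes. Trp73 differed by 0.05 and 0.88. Beta and gamma actin (Actb and Actg1) differed by 0.61 and 0.11 in WT and by 1.19 and 0.82 in PAX8PPARg. Non-muscle myosin heavy chain (Myh9) differed by 0.55 and 0.44 where Myh11 differed by -2.30 and -2.45. The calponin gene Cnn2 differed by 0.35 and 0.59, and the transgelin gene Tagln2 by 0.82 and 0.18.

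Genes that trigger or regulate contraction were not lower as a group. Of 16 measured signalling genes, 2 (Gata6 and Plcb1) were higher by 2-fold or more and 0 lower in WT, against 7.45% and 8.85% of all genes. In PAX8PPARg 3 (Gata6, Myocd and Oxt) were higher and 1 (Plcb1) lower, against 10.6% and 7.02% of all genes. The medians of 0.14 and 0.20 were both below 0 with spike-in scaling, as were those of all genes, at -0.53 and -1.12. Srf, the gene of serum response factor, read 888, 852, 1219.5 and 643, a difference of -0.06 in WT and -0.77 in PAX8PPARg. Myocd, the gene of its coactivator myocardin, read 19.4, 23.8, 15.2 and 54.4, close to the background range. The oxytocin gene Oxt itself read 23.2, 59.0, 3.9 and 79.6, with the value of 3.9 within the background range.

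Some marker lists of other cell types were also lower under RU486. This held for luminal and pericyte markers mainly in WT, endothelial markers mainly in PAX8PPARg and adipocyte markers in both, but not for fibroblast markers. Their part in the differences was not tested. In WT, 12 of 13 luminal markers were lower under RU486 by 2-fold or more (median -3.66). So were 6 of 12 pericyte and vascular smooth muscle markers, whose summed signal was 6426 on the placebo and 3190 on the RU486 array. Of all genes, 8.85% were lower by that much in WT and 7.02% in PAX8PPARg. Among the pericyte markers, Rgs5 differed by -1.30 and Pdgfrb by -1.06 in WT, and by -0.19 and -0.44 in PAX8PPARg, where 1 of 12 (Angpt1) was lower by 2-fold or more. The median of the luminal markers in PAX8PPARg was 0.46, and it became -0.94 with spike-in scaling, beside -1.12 for all genes. In PAX8PPARg, 8 of 8 adipocyte markers and 6 of 10 endothelial markers were lower under RU486 by 2-fold or more, with Adipoq at 4509 on the placebo and 123 on the RU486 array. In WT this held for 5 of 8 adipocyte markers (median -1.18) and 0 of 10 endothelial markers. In both genotypes 5 of 8 adipocyte markers were lower by that much, against 3 of the 8 genes described here and 1.48% of all genes. The summed endothelial signal was 5185 and 2092 on the PAX8PPARg placebo and RU486 arrays, and 2766 and 1931 in WT. Fibroblast and myofibroblast markers had medians of 0.03 in WT and 0.39 in PAX8PPARg. These became -0.61 and -0.98 with spike-in scaling, beside -0.53 and -1.12 for all genes. In each genotype 1 of 16 (Thy1 in WT and Lum in PAX8PPARg) was lower by 2-fold or more, beside 8.85% and 7.02% of all genes. Periostin (Postn) differed by -0.16 and 0.09.

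**Figure D3:**
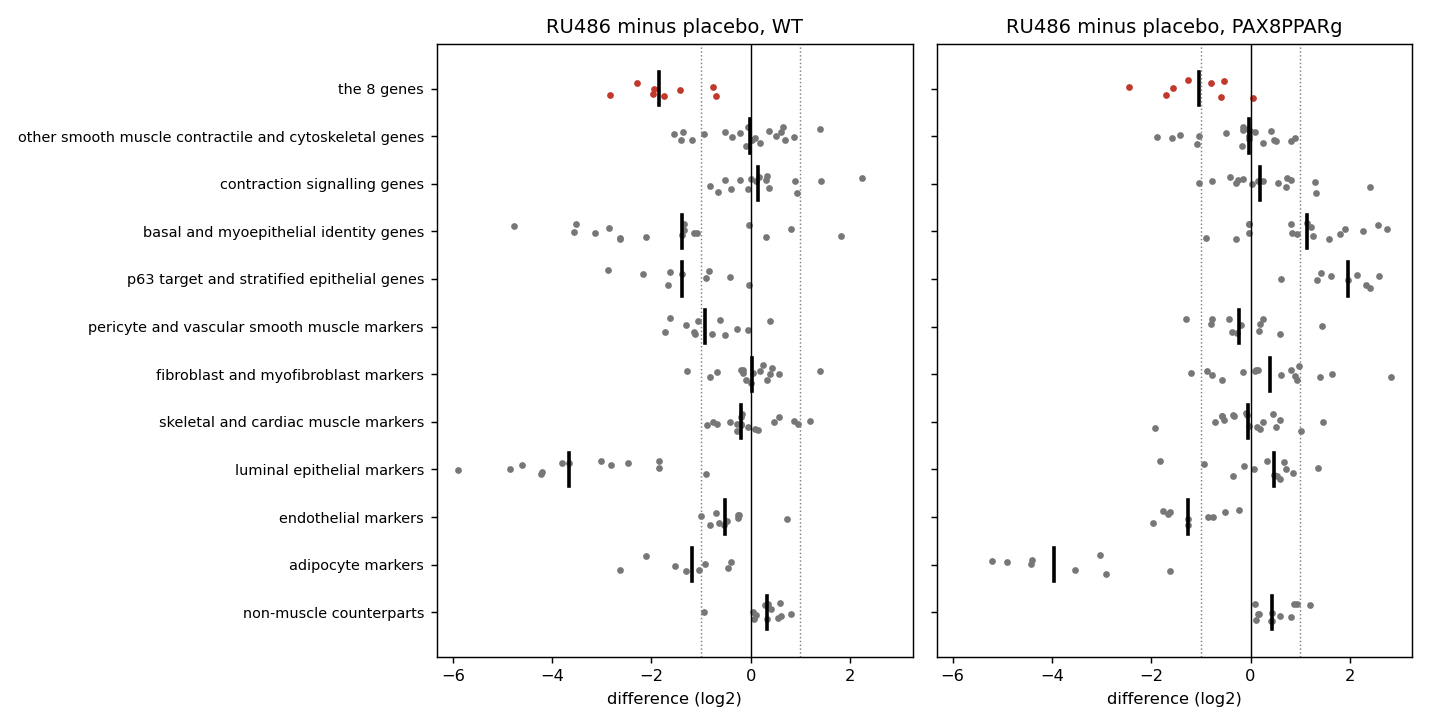
Difference between the RU486 and placebo arrays (log2) of each gene in the lists, with the 8 genes in red, black bars at the list medians and dotted lines at 2-fold. The median of the 8 genes was -1.85 in WT and -1.03 in PAX8PPARg, while that of the basal identity list was -1.38 in WT and 1.14 in PAX8PPARg.

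Between genotypes, the placebo pools lay within 2-fold for all 8 genes by their representative probe sets, as they did for 11181 of the 12393 genes. The RU486 pools differed most in Trp63. Under placebo 0 of the 8 genes were at least 2-fold higher or lower in PAX8PPARg than in WT, against 4.28% of all genes higher and 5.5% lower. The differences ran from -0.19 for Acta2 to 0.49 for Mylk, with a median of 0.24 beside -0.15 for all genes. By the other probe sets, Acta2 differed by 1.24 (75.4 in WT and 229.8 in PAX8PPARg) and Mylk by 0.92 and 0.0027. Those of Myh11 and Trp63 differed by 0.23 to 0.49. The values of Acta2 and Actg2 (-0.04) were above 0 with quantile normalization, at 0.14 and 0.09, and that of Acta2 was 0.52 when its probe sets were averaged.

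Under RU486, 3 of the 8 genes were at least 2-fold higher in PAX8PPARg than in WT and 0 lower, against 10.8% and 10.1% of all genes, with a median of 0.62. These were Trp63 (3.20, or 9.16-fold higher), Actg2 (1.34) and Acta2 (1.02), and the last became -0.45 with averaged probe sets. Cnn1 was the 1 gene below 0, at -0.63. Myh11 differed by 0.21 and Tagln by 0.07, and both were below 0 with spike-in scaling, at -0.32 and -0.48. On the same arrays 13 of 13 luminal and 10 of 17 basal identity markers were at least 2-fold higher in PAX8PPARg, and their part in the difference of Trp63 was not tested.

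**Figure D4:**
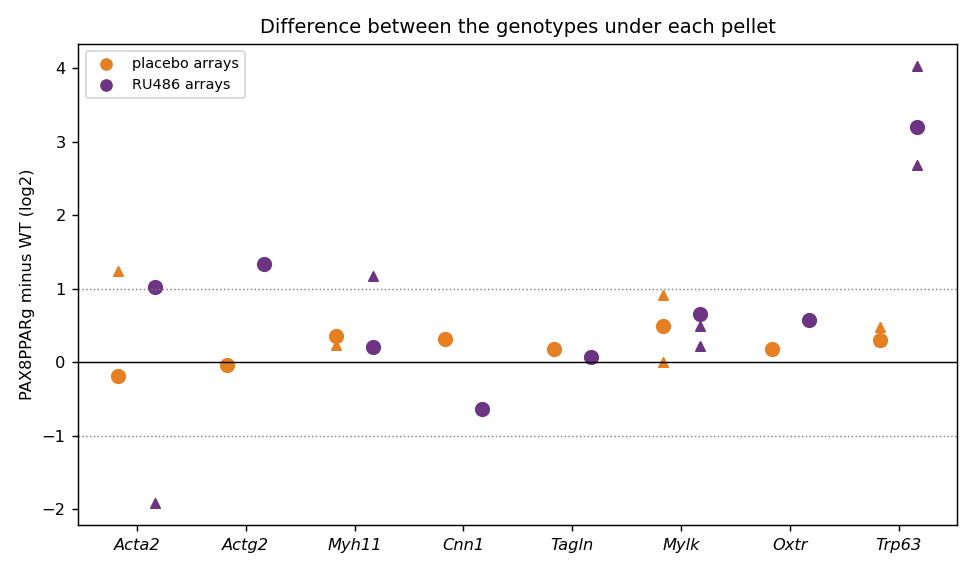
Difference between PAX8PPARg and WT in log2 for every probe set of the 8 genes, with placebo arrays in orange and RU486 arrays in purple, circles for the representative probe set, triangles for the others, and dotted lines at 2-fold. The 3 probe sets of Trp63 under RU486 lay at 3.20, 4.03 and 2.69, and the 2 of Acta2 at 1.02 and -1.91.

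The RU486 difference in PAX8PPARg minus that in WT was at least 2-fold positive for 3 of the 8 genes and negative for 0, against 15.6% and 12.1% of all genes. Those genes were Trp63 (2.89), Actg2 (1.37) and Acta2 (1.21). With quantile normalization 2 were positive and 1 negative by 2-fold, with Acta2 at 0.89 and Cnn1 at -1.05. With spike-in scaling 1 was positive and 1 negative, with Actg2 at 0.65, Acta2 at 0.47, Cnn1 at -1.60 and the median of the 8 at -0.37. The median of all genes was then -0.48. Averaging its probe sets turned Acta2 to -0.97. Myh11, Tagln and Mylk lay within 0.2 log2 of 0, at -0.15, -0.11 and 0.17, Oxtr at 0.39 and Cnn1 at -0.94. With spike-in scaling Myh11, Tagln and Mylk were at -0.86, -0.85 and -0.57, and the second probe set of Myh11 was at 0.94. Trp63 was the 1 gene of the 8 that kept a difference of 2-fold or more under each alternative, from 2.14 to 3.02.

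Genes with the most similar patterns were sought by Euclidean distance between centred log2 values over the 4 arrays, among 6197 genes at or above the median level. Nearest to the mean of the 6 contractile genes was Myl9, at a distance of 0.15 log2, followed by Igfbp5 (0.18), Ctdspl (0.18), Pdk4 (0.21), Foxo1 (0.27) and Gpam (0.27). Of the 6 genes that make up that mean, Mylk lay at 0.27 from it, and the others lay farther than all 6 nearest genes, at 0.53 (Acta2), 0.65 (Actg2), 0.66 (Tagln), 0.77 (Cnn1) and 1.04 (Myh11). Oxtr lay at 0.40 and Trp63 at 1.95. Nearest to Oxtr were Acaca (0.25), Mmp11 (0.25), Foxo1 (0.30), Col9a1 (0.33), Cd55 (0.35) and Gpam (0.37). Nearest to Myh11 were Lpl (0.43), Col9a1 (0.44), Mmp11 (0.53), Cd55 (0.59), Slc9a3r2 (0.61) and Acaca (0.63), so Oxtr, at 0.69, was the closest of the other 7 genes. Nearest to Trp63 were Mest (0.15), Cxadr (0.22), Reep6 (0.25), Wwc1 (0.27), Ptprf (0.29) and Mycn (0.29). With 4 arrays such distances describe these pools only.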

How the data were processed

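The values were probe set signals on a linear intensity scale, used as deposited by the authors. Per the labels' protocols, biotin-labelled cRNA was made from RNA pooled in equal amounts from 5 mice a group. The software behind them was not given in the sources used here. Every array had a 2% trimmed mean between 500.1 and 500.2, so the signals had been scaled before deposit. No detection calls were used.

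From 22690 probe sets, 64 controls were set aside, and 20380 had a single symbol in the platform table. To each signal 16 was added, log2 was taken and the median of the array subtracted. The brightest probe set by mean stands for a gene, and the other probe sets of the 8 genes are given beside it. Differences were counted at 2-fold. Other genes were named by a rule that did not use their values, with exceptions stated. The genes nearest in pattern were, by contrast, found from their values. Of 11 further gene lists, genes were matched by symbol, or by RefSeq synonym and gene ID. The members, lists and rules were chosen with earlier results of these data known. The subtraction of arrays was tested on simulated data without noise, with bright probe sets and almost no pseudocount. That test does not cover low signals or the addition of 16. Alternatives were other pseudocounts (1 and 64), no centring, quantile normalization, averaged probe sets, raised low signals, a 1.5-fold threshold, leaving out Oxtr and, added after the data were seen, spike-in scaling. Python 3.11.15, numpy 2.4.6 and pandas 2.3.3 were used.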

Additional observations from a re-analysis of the deposited data

Results flagged for a closer look

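Among the RU486 differences printed for single genes and list medians, those below had opposite signs in the genotypes, with at least 2-fold in 1 of them or both. They are part of the 37 of 159 genes over all lists for which this held. The share of all genes for which it held was not counted. The difference between genotypes was not tested, since each group was 1 array. For Trp63 the value in PAX8PPARg minus that in WT was 2.89 log2, from -2.84 in WT and 0.06 in PAX8PPARg. The corresponding values were 7.33 for Krt14, 5.40 for Krt5, 5.38 for Krt17, 4.48 for Dsc3, 3.01 for Perp and 2.30 for Krt8. It was -1.07 for Kcnmb1, -1.44 for Mrvi1, -2.46 for Plcb1, -2.71 for Dst, -1.72 for Myh2, 1.51 for Myh4 and 1.89 for Ppp1r14a. The sign of Trp63 in PAX8PPARg turned with the scaling. By medians over lists, it was 2.88 for basal and myoepithelial identity genes, 3.09 for p63 target and stratified epithelial genes and 3.85 for luminal markers.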

How the results depend on the processing

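All 8 genes lay below 0 for RU486 against placebo in WT, and all but Trp63 in PAX8PPARg, under each alternative run. No replicates exist, so a median was taken as moved when it shifted by more than the typical spread between probe sets of a gene (0.16 log2 in WT). The median in WT was -1.52 with a pseudocount of 64 and -1.64 with averaged probe sets, and that in PAX8PPARg was -1.45 with averaged probe sets and -0.81 without Oxtr. The median of PAX8PPARg minus WT under placebo was 0.43 without centring and with quantile normalization. Cnn1 made the count of genes at least 2-fold lower in the RU486 difference between genotypes 1 with a pseudocount of 1, without centring, with quantile normalization and at 1.5-fold. At 1.5-fold, 1 gene was lower in PAX8PPARg under RU486. Averaging turned Acta2 to -0.45 for PAX8PPARg minus WT under RU486 and to -0.97 for the RU486 difference between genotypes. Spike-in scaling gave medians of -2.45 for RU486 in WT, -2.42 for RU486 in PAX8PPARg, 0.43 and 0.15 for genotype under placebo and RU486, and -0.37 for the difference between genotypes. With it 8 genes were at least 2-fold lower under RU486 in PAX8PPARg, where the median of all genes itself lay at -1.12. In both the genotype comparison under RU486 and the difference between genotypes, 1 was then higher and 1 lower. The medians of all genes there were -0.41 and -0.48, and shares of all genes were not counted with this scaling. Signals near the bacterial controls limit Oxtr and the dimmer probe sets of Acta2 and Myh11.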

Other observations

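Genes of striated muscle, which are distinct from the smooth muscle genes, were lower in PAX8PPARg than in WT for many members of the list. Of 18 measured skeletal and cardiac muscle markers, 9 were at least 2-fold lower in PAX8PPARg than in WT under placebo and 13 under RU486, with medians of -1.14 and -1.57 log2, where 5.5% and 10.1% of all genes were lower by that much. Acta1, the gene of skeletal muscle actin, read 987 with placebo and 574 with RU486 in WT, and 139.5 and 147 in PAX8PPARg. Between RU486 and placebo, 0 of the 18 were lower by 2-fold or more and 1 (Myh2, 1.19) higher in WT, against 8.85% and 7.45% of all genes. In PAX8PPARg 1 (Myh1, -1.93) was lower and 2 (Myh4, 1.46, and Actc1, 1.01) were higher, against 7.02% and 10.6% of all genes. These Myh genes are named after their values were seen. The median was -0.19 in WT and -0.05 in PAX8PPARg. The creatine kinase gene Ckm read 36.2, 29.5, 0.8 and 6.0, the last pair within the background range. Actc1, the gene of cardiac actin, read 7.8, 9.3, 10.1 and 31.8, within the background range on 3 of the 4 arrays.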
